A study of Homo sapiens with 8 samples.

Results

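Aminoacyl-tRNA synthetases are the enzymes that join each amino acid to its transfer RNA, the step that supplies the ribosome with charged tRNA. The 39 genes described here are 20 genes for cytosolic enzymes, 16 for mitochondrial enzymes (names ending in 2) and 3 for the scaffold proteins of the multi-synthetase complex. They were taken by name from a table of normalised log2 levels of 25066 genes. Of these members, 37 were found by symbol and 2 by gene ID, since AIMP1 is listed there as SCYE1 and AIMP2 as JTV1. All 39 lay above the level filter, and the least abundant, PARS2, had at least 118 reads in every library.

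The libraries came from TMD8, an established human lymphoma line of the activated B cell-like (ABC) type of diffuse large B cell lymphoma, which had been transduced with Cas9 by lentivirus. The cells carried either a guide RNA against KLHL14 (sgKLHL14, genotype given as KLHL14-/-) or a control guide (sgCTRL, genotype given as KLHL14+/+). KLHL14 is a substrate adaptor of cullin-3 ubiquitin ligases. Cells received ibrutinib, an inhibitor of the B cell receptor kinase BTK, at 2 nM for 24 h, or DMSO, its solvent, for the same time. This gave 4 groups of 2 RNA-seq libraries, namely sgKLHL14 with ibrutinib, sgCTRL with ibrutinib, sgKLHL14 with DMSO and sgCTRL with DMSO. Whether the guided cells were a clone or a pool, and whether replicate libraries stem from separate cultures, is not given in the sources used here. The p-values therefore reflect only how far these samples scatter, which may be technical scatter.

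In human cells, 8 of the cytosolic enzymes sit with the scaffold proteins AIMP1, AIMP2 and EEF1E1 in the multi-synthetase complex and the others are outside it, VARS among them, which is bound to the elongation factor eEF1 complex. Mitochondria translate their own messages with a separate set of nuclear-encoded enzymes, and GARS and KARS each make both a cytosolic and a mitochondrial form from 1 gene. Many cytosolic synthetase genes are known targets of ATF4, the transcription factor of the amino acid and integrated stress responses, whose translation increases when the initiation factor eIF2 is phosphorylated. ATF4 pairs with C/EBP proteins on the C/EBP-ATF response element.

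The core of that element, searched as TGATGNAA on both strands, is shown here because ATF4 is known to act through it. The windows were the RefSeq promoters of GRCh38.p14, which cover 250 bases before to 50 bases after each start, and 33 members had at least 1. The letters occurred in the windows of 7 of 16 cytosolic enzymes (43.8%), 0 of 3 scaffold proteins and 1 of 14 mitochondrial enzymes (7.14%). For comparison, 2.72% of the 9697 tested genes with a window and 3.62% of all 35116 windows held them. The matched stretches of the cytosolic genes and of YARS2 follow, 5′ to 3′ on the gene's strand, with the matched letters in capitals.
IARS: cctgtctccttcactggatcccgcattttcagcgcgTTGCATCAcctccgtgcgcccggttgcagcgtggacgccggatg
MARS: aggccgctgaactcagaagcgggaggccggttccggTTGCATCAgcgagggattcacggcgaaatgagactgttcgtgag
AARS: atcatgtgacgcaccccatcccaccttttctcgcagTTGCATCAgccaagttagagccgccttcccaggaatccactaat
CARS: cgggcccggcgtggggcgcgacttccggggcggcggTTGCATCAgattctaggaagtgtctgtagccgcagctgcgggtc
GARS: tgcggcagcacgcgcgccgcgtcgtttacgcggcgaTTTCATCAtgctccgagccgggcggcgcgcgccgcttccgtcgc
NARS: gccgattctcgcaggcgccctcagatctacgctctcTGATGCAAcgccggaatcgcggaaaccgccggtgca
TARS: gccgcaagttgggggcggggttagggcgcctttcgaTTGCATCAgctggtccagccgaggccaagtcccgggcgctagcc
YARS2: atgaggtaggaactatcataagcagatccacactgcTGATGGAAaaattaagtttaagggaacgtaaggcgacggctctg
Positions of a match are counted from 0 at the first transcribed base of the window, so that negative ones lie upstream. In GRCh38.p14 the stretches are IARS at chr9:92293667-92293746 (minus strand, first matched base at -13), MARS at chr12:57488028-57488107 (plus strand, first matched base at -4), AARS at chr16:70289650-70289729 (minus strand, first matched base at -187), CARS at chr11:3057382-3057461 (minus strand, first matched base at -2). The others are GARS at chr7:30594809-30594888 (plus strand, first matched base at -33), NARS at chr18:57621787-57621858 (minus strand, first matched base at 14), TARS at chr5:33440931-33441010 (plus strand, first matched base at 2) and YARS2 at chr12:32756051-32756130 (minus strand, first matched base at -197). The genes IARS, MARS, AARS, CARS and TARS share the 8 letters TTGCATCA, and NARS has the same letters on the other strand. GARS and YARS2 have another letter at N. CARS, GARS and TARS each held the match in 1 of their 2 windows.

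A second motif, the E-box CACGTG that MYC and its relatives bind, overlapped none of these matches. Counted by gene with a window, it was present in 1 of 16 cytosolic (IARS), 1 of 3 scaffold (AIMP2) and 3 of 14 mitochondrial genes (CARS2, EARS2 and MARS2), beside 13% of the tested genes with a window. No window was used for LARS, DARS, VARS, YARS, AARS2 and VARS2. A match describes letters only, and no binding was measured.

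Depth ran from 12333876 to 16843591 reads in the 4 ibrutinib libraries and from 13497206 to 23467110 in the 4 DMSO libraries. The recorded B cell markers (6 of 6, MS4A1 and CD79A among them) and activated B cell-like markers (3 of 3) were above the filter. Of the markers of other cells, 1 of 4 for T cells, 1 of 4 for myeloid cells, 1 of 4 for epithelium and 3 of 3 for fibroblasts were, while CD3D, CD3E and KRT19 were at 0 in every library. The summed fibroblast level on the log2 scale was 8.16 to 8.54 with ibrutinib and 7.21 to 7.56 with DMSO, and the summed T cell level was 5.66 to 6.13 with ibrutinib and 5.24 to 5.32 with DMSO. The summed epithelium level was 7.41 to 7.63 with ibrutinib and 7.90 to 8.32 with DMSO, and the myeloid sums overlapped (10.25 to 10.35 with ibrutinib and 10.10 to 10.29 with DMSO). The summed B cell level was 16.81 to 16.85 with ibrutinib and 16.27 to 16.37 with DMSO, and the activated B cell-like sum was 15.42 to 15.82 with ibrutinib and 16.11 to 16.30 with DMSO. The fibroblast, T cell and B cell sums were thus higher and the epithelium and activated B cell-like sums lower in all ibrutinib libraries than in all DMSO libraries, and their part in the results, and that of depth, was not tested. The libraries labelled sgKLHL14 did not show less KLHL14 mRNA than sgCTRL (log2 change 0.86 with ibrutinib, limma adjusted p = 2.46e-08, and 0.20 with DMSO, adjusted p = 0.107), and a gene count does not check an edited sequence. In bulk RNA, fewer cells of a type and less RNA per cell cannot be told apart.

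With ibrutinib, most cytosolic synthetase mRNAs fell with either guide, while the mitochondrial ones did not move together. With sgKLHL14, 15 of 20 cytosolic genes were lower than with DMSO and 0 higher. With sgCTRL, 14 of 20 were lower and 0 higher, and the same 14 were lower with both guides. GARS and KARS, which also make the mitochondrial form, were counted as cytosolic only and are among these 14. The call was made with limma on all 12682 genes above the filter at a Benjamini-Hochberg adjusted p under 0.05. The background was 19.3% of tested genes lower with sgKLHL14 and 16.9% with sgCTRL, and 19.7% and 17.9% higher. With sgKLHL14, 0 cytosolic genes were higher at an unadjusted p under 0.05 and 0 by limma-voom, and with sgCTRL 1 was, QARS, which limma-voom on the recovered reads also called. The median log2 change of the cytosolic genes was -0.45 with sgKLHL14 and -0.48 with sgCTRL, beside 0.01 and 0.02 for all genes tested. The responses of the 39 members with the different guides, which share no library, had a Pearson r of 0.97 across genes, a description only, since genes are not independent replicates.

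**Figure D1:**
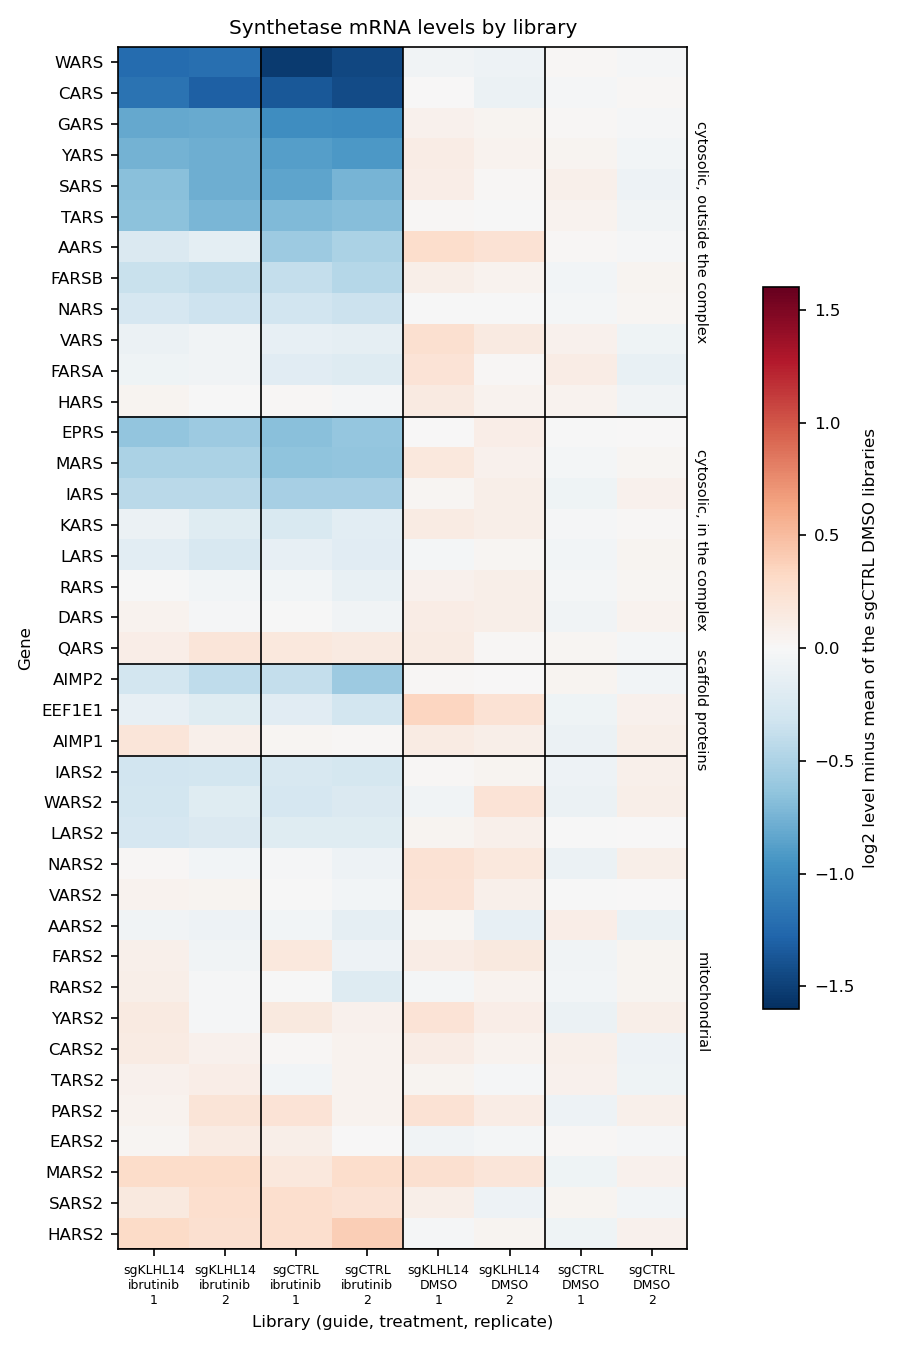
Each cell is the deposited log2 level of a gene (rows, grouped by role) in 1 library (columns) minus the mean of the 2 sgCTRL DMSO libraries, with blue lower and red higher. The 4 ibrutinib columns are blue for most cytosolic genes, down to WARS and CARS at the top, and pale for most mitochondrial genes.

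Among the 12 cytosolic enzymes outside the complex, 10 fell with sgKLHL14 and 9 with sgCTRL, with median log2 changes of -0.57 and -0.62. The log2 level of WARS was 12.16 and 12.17 with ibrutinib, against 13.32 and 13.30 with DMSO, in the libraries labelled sgKLHL14, and 11.85 and 11.93 with ibrutinib, against 13.40 and 13.36 with DMSO, in the sgCTRL libraries. WARS, the tryptophanyl enzyme and also an interferon-induced gene, was far below its DMSO level in every ibrutinib library, with no overlap between treatments. The WARS change was -1.15 ± 0.057 with sgKLHL14 (SE, limma adjusted p = 1.55e-11) and -1.50 ± 0.057 with sgCTRL (adjusted p = 8.33e-13). The ibrutinib level was 45.2% of the DMSO level with sgKLHL14 and 35.4% with sgCTRL.

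CARS, the cysteinyl enzyme, showed a fall of similar size. CARS had log2 levels of 11.96 and 11.83 with ibrutinib, against 13.14 and 13.04 with DMSO, in sgKLHL14, and 11.78 and 11.71 with ibrutinib, against 13.12 and 13.15 with DMSO, in sgCTRL. The treatments did not overlap with either guide. The CARS change was -1.19 ± 0.062 with sgKLHL14 (SE, limma adjusted p = 2.91e-11) and -1.39 ± 0.062 with sgCTRL (adjusted p = 4.33e-12). GARS charges glycine in both compartments. GARS had log2 levels of 12.81 and 12.83 with ibrutinib, against 13.70 and 13.67 with DMSO, in sgKLHL14, and 12.64 and 12.63 with ibrutinib, against 13.65 and 13.61 with DMSO, in sgCTRL. The GARS change was -0.86 ± 0.055 with sgKLHL14 (SE, limma adjusted p = 4.49e-10) and -0.996 ± 0.055 with sgCTRL (adjusted p = 7.35e-11). All its ibrutinib libraries were below all DMSO libraries.

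YARS, the tyrosyl enzyme, and SARS, the seryl enzyme, came next. YARS had log2 levels of 11.53 and 11.49 with ibrutinib, against 12.40 and 12.33 with DMSO, in sgKLHL14, and 11.40 and 11.36 with ibrutinib, against 12.32 and 12.24 with DMSO, in sgCTRL. SARS had log2 levels of 12.34 and 12.23 with ibrutinib, against 13.12 and 13.03 with DMSO, in sgKLHL14, and 12.16 and 12.26 with ibrutinib, against 13.09 and 12.93 with DMSO, in sgCTRL. Neither gene had overlapping treatments. The YARS change was -0.86 ± 0.061 with sgKLHL14 (SE, limma adjusted p = 1.99e-09) and -0.90 ± 0.061 with sgCTRL (adjusted p = 1e-09). The SARS change was -0.79 ± 0.067 with sgKLHL14 (SE, limma adjusted p = 2.37e-08) and -0.80 ± 0.067 with sgCTRL (adjusted p = 1.96e-08). TARS charges threonine. TARS had log2 levels of 12.62 and 12.55 with ibrutinib, against 13.29 and 13.26 with DMSO, in sgKLHL14, and 12.57 and 12.59 with ibrutinib, against 13.33 and 13.22 with DMSO, in sgCTRL. The TARS change was -0.69 ± 0.059 with sgKLHL14 (SE, limma adjusted p = 2.25e-08) and -0.69 ± 0.059 with sgCTRL (adjusted p = 2.16e-08). Its ibrutinib libraries were below all 4 DMSO libraries.

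AARS, the alanyl enzyme, fell less and also differed between guides. AARS had log2 levels of 13.14 and 13.22 with ibrutinib, against 13.65 and 13.60 with DMSO, in sgKLHL14, and 12.80 and 12.87 with ibrutinib, against 13.39 and 13.36 with DMSO, in sgCTRL. The 2 treatments did not overlap within a guide, and the sgKLHL14 values were above the sgCTRL values within each treatment. The AARS change was -0.45 ± 0.057 with sgKLHL14 (SE, limma adjusted p = 4.82e-06) and -0.54 ± 0.057 with sgCTRL (adjusted p = 4.33e-07). FARSB and FARSA encode the beta and alpha chains of the phenylalanyl enzyme. FARSB fell, with log2 changes of -0.45 with sgKLHL14 and -0.42 with sgCTRL (limma adjusted p = 1.02e-05 and 2.27e-05). FARSA had -0.19 with either guide and did not pass (limma adjusted p = 0.0545 with sgKLHL14 and 0.0527 with sgCTRL). Without sgKLHL14 DMSO replicate 2 FARSA had -0.29 with sgKLHL14 (adjusted p = 0.0087), and without sgCTRL DMSO replicate 2 it had -0.31 with sgCTRL (adjusted p = 0.00855). With sgCTRL it also passed with median scaling or a pseudocount of 16 (adjusted p = 0.0448 and 0.04995). FARSA passed as well without either DMSO replicate of the other guide (adjusted p = 0.0255 to 0.0317). NARS, the asparaginyl enzyme, fell (-0.29 with sgKLHL14 and -0.33 with sgCTRL).

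VARS, the valyl enzyme, passed with sgKLHL14 (-0.27, limma adjusted p = 0.00197) and not with sgCTRL (-0.14, adjusted p = 0.0979). It passed there without sgCTRL DMSO replicate 2 (-0.21, adjusted p = 0.0347). The difference between the VARS responses was -0.13 and did not pass. HARS, the histidyl enzyme, had -0.08 with sgKLHL14 and -0.001 with sgCTRL, and neither passed (limma adjusted p = 0.337 and 0.992).

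**Figure D2:**
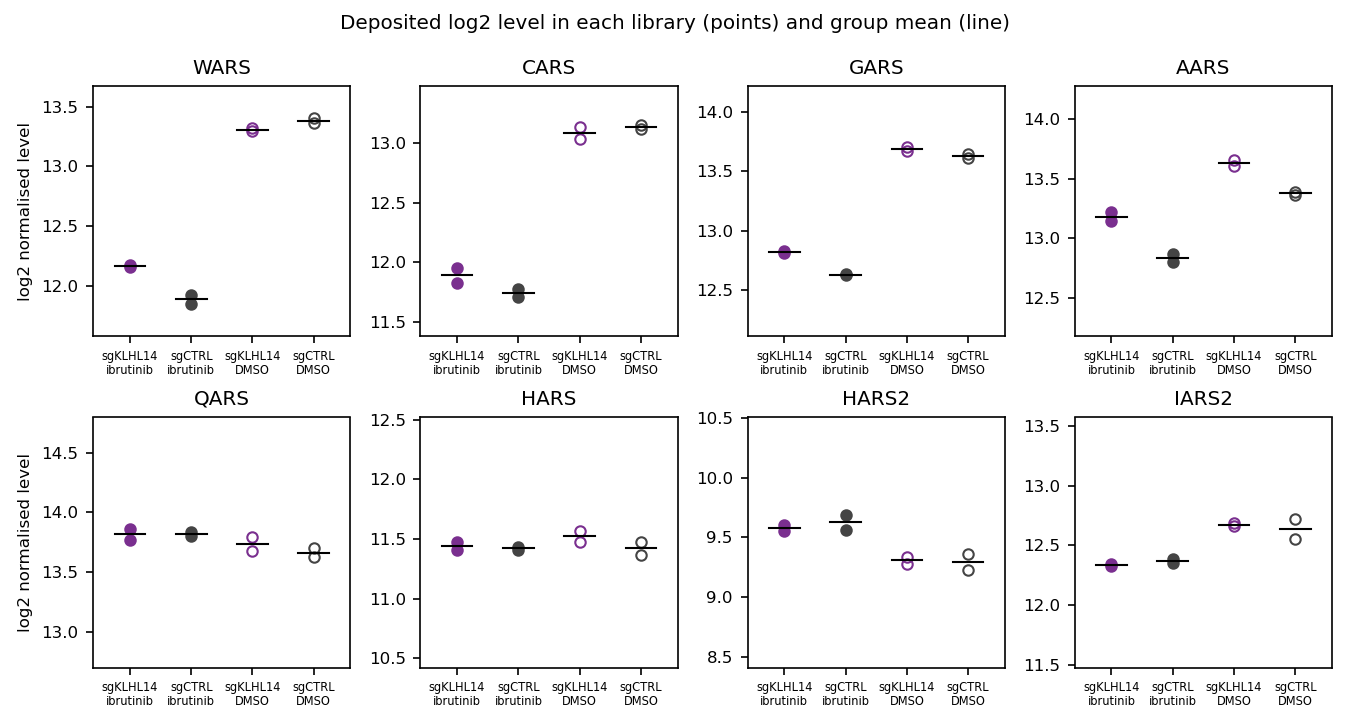
Points are the deposited log2 levels of 8 members in single libraries and lines are group means, on axes that span the same log2 range for each gene. WARS, CARS, GARS and AARS are lower in ibrutinib libraries (filled) than in DMSO libraries (open), HARS2 is higher, and HARS and QARS lie close together.

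In the multi-synthetase complex, 5 of 8 enzymes fell with each guide, and the median log2 change was -0.24 with sgKLHL14 and -0.18 with sgCTRL. The members fell by unequal amounts. EPRS had log2 levels of 13.08 and 13.12 with ibrutinib, against 13.71 and 13.81 with DMSO, in sgKLHL14, and 13.04 and 13.08 with ibrutinib, against 13.70 and 13.72 with DMSO, in sgCTRL. EPRS is the fused glutamyl and prolyl enzyme. The EPRS change was -0.66 ± 0.058 with sgKLHL14 (SE, limma adjusted p = 3.55e-08) and -0.65 ± 0.058 with sgCTRL (adjusted p = 4.87e-08). MARS charges methionine, including the initiator tRNA. MARS had log2 levels of 12.63 and 12.63 with ibrutinib, against 13.30 and 13.21 with DMSO, in sgKLHL14, and 12.49 and 12.50 with ibrutinib, against 13.11 and 13.17 with DMSO, in sgCTRL. The MARS change was -0.62 ± 0.057 with sgKLHL14 (SE, limma adjusted p = 6.59e-08) and -0.64 ± 0.057 with sgCTRL (adjusted p = 4.74e-08). IARS charges isoleucine. IARS had log2 levels of 13.51 and 13.51 with ibrutinib, against 13.97 and 14.04 with DMSO, in sgKLHL14, and 13.41 and 13.41 with ibrutinib, against 13.87 and 14.01 with DMSO, in sgCTRL. The IARS change was -0.50 ± 0.06 with sgKLHL14 (SE, limma adjusted p = 2.22e-06) and -0.53 ± 0.06 with sgCTRL (adjusted p = 1.08e-06). None of these genes had overlapping treatments with either guide.

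KARS, the lysyl enzyme, and LARS, the leucyl enzyme that also senses leucine for mTORC1, fell by less. KARS had log2 changes of -0.26 with sgKLHL14 and -0.20 with sgCTRL (limma adjusted p = 0.00182 and 0.0114). The sgCTRL call ended without sgCTRL ibrutinib replicate 1 or sgCTRL DMSO replicate 2 (adjusted p = 0.159 and 0.0702), and with no variance trend (adjusted p = 0.0679). LARS had -0.22 with sgKLHL14 and -0.16 with sgCTRL (limma adjusted p = 0.00659 and 0.0471). The LARS call with sgKLHL14 ended without sgKLHL14 ibrutinib replicate 2 (adjusted p = 0.0716) and with no variance trend (adjusted p = 0.0523). With sgCTRL it ended without ibrutinib replicate 1, ibrutinib replicate 2 or DMSO replicate 2 of sgCTRL (adjusted p = 0.138, 0.267 and 0.24), and also with quantile scaling, no level filter or no variance trend (adjusted p = 0.0827, 0.0845 and 0.133).

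QARS, the glutaminyl enzyme, was the cytosolic gene with a positive change with both guides. QARS had log2 levels of 13.77 and 13.86 with ibrutinib, against 13.80 and 13.68 with DMSO, in sgKLHL14, and 13.84 and 13.80 with ibrutinib, against 13.70 and 13.63 with DMSO, in sgCTRL. The treatments overlapped with sgKLHL14 and not with sgCTRL. The QARS change was 0.08 ± 0.061 with sgKLHL14 (SE, limma adjusted p = 0.335) and 0.16 ± 0.061 with sgCTRL (adjusted p = 0.055). With limma-voom on the recovered reads QARS passed with sgCTRL (0.16, adjusted p = 0.0495). It also passed with sgCTRL without any 1 of the sgKLHL14 libraries, with the same change of 0.16. RARS and DARS, the arginyl and aspartyl enzymes, had log2 changes of -0.10 and -0.09 with sgKLHL14 and of -0.08 and -0.03 with sgCTRL, and none of these passed.

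The scaffold proteins were split. AIMP2, which holds the lysyl and aspartyl enzymes in the complex, fell. AIMP2 had log2 levels of 9.47 and 9.36 with ibrutinib, against 9.79 and 9.77 with DMSO, in sgKLHL14, and 9.39 and 9.19 with ibrutinib, against 9.82 and 9.72 with DMSO, in sgCTRL. The AIMP2 change was -0.36 ± 0.09 with sgKLHL14 (SE, limma adjusted p = 0.00336) and -0.48 ± 0.09 with sgCTRL (adjusted p = 0.000361). Its libraries did not overlap between treatments. In GENCODE v29, 28.9% of its exonic bases overlap EIF2AK1 on the other strand, and whether counting used strand is not given in the sources used here. EEF1E1, also named AIMP3, fell as well. EEF1E1 had log2 levels of 10.35 and 10.29 with ibrutinib, against 10.82 and 10.72 with DMSO, in sgKLHL14, and 10.30 and 10.19 with ibrutinib, against 10.41 and 10.55 with DMSO, in sgCTRL. The EEF1E1 change was -0.45 ± 0.076 with sgKLHL14 (SE, limma adjusted p = 0.000106) and -0.24 ± 0.076 with sgCTRL (adjusted p = 0.0212). The sgCTRL call for EEF1E1 ended without sgCTRL ibrutinib replicate 2 or sgCTRL DMSO replicate 2 (adjusted p = 0.214 and 0.18), and with no level filter or no variance trend (adjusted p = 0.0503 and 0.0782). AIMP1 had log2 changes of 0.03 with sgKLHL14 and 0.02 with sgCTRL with overlapping libraries, and did not pass.

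**Figure D3:**
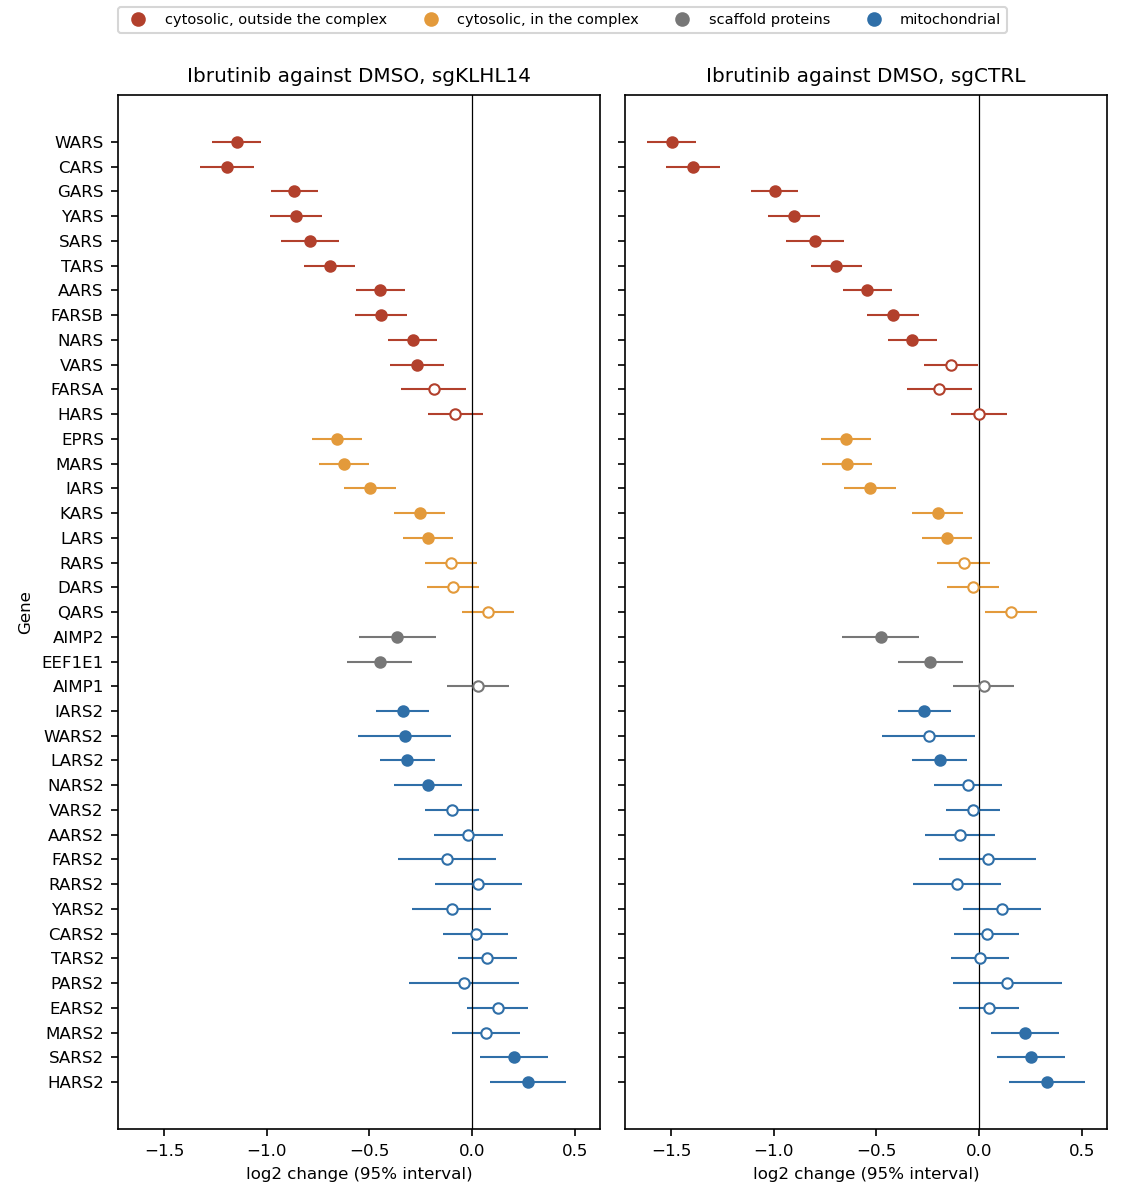
Log2 change with ibrutinib relative to DMSO for each member (rows) with sgKLHL14 (left) and sgCTRL (right), with 95% intervals from limma. Filled points passed the adjusted threshold. Cytosolic genes run from -1.50 for WARS to 0.16 for QARS in sgCTRL, while mitochondrial genes lie between -0.34 and 0.33 over both guides.

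The 16 mitochondrial enzymes showed no common direction. With sgKLHL14, 4 were lower and 2 higher with ibrutinib, and with sgCTRL 2 were lower and 3 higher, which is close to the background shares given above. Their median log2 change was -0.03 with sgKLHL14 and 0.02 with sgCTRL. IARS2 and LARS2 were lower with both guides and HARS2 and SARS2 higher with both. Leaving out 1 library left 3 to 5 calls with sgKLHL14 and 1 to 5 with sgCTRL. The lowest counts, of 3 with sgKLHL14, came without ibrutinib replicate 1 or 2 of sgKLHL14. With sgCTRL the count was 1 without ibrutinib replicate 2, 2 without ibrutinib replicate 1 or DMSO replicate 1, and 3 without DMSO replicate 2 of sgCTRL.

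IARS2 had log2 levels of 12.33 and 12.34 with ibrutinib, against 12.66 and 12.69 with DMSO, in sgKLHL14, and 12.38 and 12.35 with ibrutinib, against 12.56 and 12.72 with DMSO, in sgCTRL. IARS2, the isoleucyl enzyme and the most abundant of the mitochondrial set per length, was lower in all ibrutinib libraries than in all DMSO libraries. The IARS2 change was -0.34 ± 0.062 with sgKLHL14 (SE, limma adjusted p = 0.000219) and -0.27 ± 0.062 with sgCTRL (adjusted p = 0.00213). LARS2 had log2 levels of 10.76 and 10.79 with ibrutinib, against 11.07 and 11.11 with DMSO, in sgKLHL14, and 10.83 and 10.83 with ibrutinib, against 11.02 and 11.03 with DMSO, in sgCTRL. LARS2 charges leucine. The LARS2 change was -0.32 ± 0.064 with sgKLHL14 (SE, limma adjusted p = 0.000611) and -0.19 ± 0.064 with sgCTRL (adjusted p = 0.0246). Its sgCTRL call ended without any 1 of the 4 sgCTRL libraries, ibrutinib or DMSO, replicate 1 or 2 (adjusted p = 0.13, 0.13, 0.0768 and 0.08). WARS2, the tryptophanyl enzyme, was lower with sgKLHL14 (-0.33, limma adjusted p = 0.0212) and had -0.25 with sgCTRL (adjusted p = 0.0857). Its sgKLHL14 call ended without sgKLHL14 ibrutinib replicate 1 (adjusted p = 0.115) or sgKLHL14 DMSO replicate 2 (-0.19, adjusted p = 0.252), and with no level filter or no variance trend (adjusted p = 0.067 and 0.0735). NARS2, the asparaginyl enzyme, was lower with sgKLHL14 (-0.22, limma adjusted p = 0.0374), and this call ended on leaving out sgKLHL14 ibrutinib replicate 1 or 2, sgCTRL ibrutinib replicate 1 or 2, or sgKLHL14 DMSO replicate 1 (adjusted p = 0.0543 to 0.175), or with no level filter or no variance trend (adjusted p = 0.0703 and 0.0954). With sgCTRL NARS2 had -0.05.

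HARS2 had log2 levels of 9.60 and 9.56 with ibrutinib, against 9.28 and 9.34 with DMSO, in sgKLHL14, and 9.56 and 9.68 with ibrutinib, against 9.23 and 9.36 with DMSO, in sgCTRL. HARS2, the histidyl enzyme, was higher in every ibrutinib library than in every DMSO library. The HARS2 change was 0.27 ± 0.089 with sgKLHL14 (SE, limma adjusted p = 0.0206) and 0.33 ± 0.089 with sgCTRL (adjusted p = 0.00686). Its calls ended without ibrutinib replicate 1, ibrutinib replicate 2 or DMSO replicate 1 of sgKLHL14 (adjusted p = 0.0911, 0.0543 and 0.0992), and without ibrutinib replicate 2 or DMSO replicate 1 of sgCTRL (adjusted p = 0.101 and 0.0814). HARS2 and HARS lie head to head, and 11.7% of the exonic bases of HARS2 overlap HARS on the other strand in GENCODE v29. SARS2 had log2 levels of 10.32 and 10.43 with ibrutinib, against 10.26 and 10.09 with DMSO, in sgKLHL14, and 10.44 and 10.39 with ibrutinib, against 10.20 and 10.12 with DMSO, in sgCTRL. SARS2, the seryl enzyme, was also higher in all ibrutinib libraries than in all DMSO libraries. The SARS2 change was 0.20 ± 0.079 with sgKLHL14 (SE, limma adjusted p = 0.0492) and 0.25 ± 0.079 with sgCTRL (adjusted p = 0.0183). Its exons overlap those of MRPS12, a mitochondrial ribosomal protein gene, on the other strand over 10.8% of bases.

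The SARS2 call with sgCTRL ended without ibrutinib replicate 1, ibrutinib replicate 2 or DMSO replicate 2 of sgCTRL (adjusted p = 0.127, 0.0663 and 0.114), and with no variance trend (adjusted p = 0.0725). With sgKLHL14 it ended without ibrutinib replicate 2 or DMSO replicate 2 of sgKLHL14 (0.14 and 0.12, adjusted p = 0.286 and 0.338) or any 1 of the 4 sgCTRL libraries (adjusted p = 0.052 to 0.0723), and with median scaling, limma-voom, no level filter or no variance trend (adjusted p = 0.0513, 0.052, 0.0893 and 0.117). MARS2, the methionyl enzyme, was higher with sgCTRL (0.22, limma adjusted p = 0.034) and had 0.07 with sgKLHL14 (adjusted p = 0.548). Its sgCTRL call ended without ibrutinib replicate 1, ibrutinib replicate 2 or DMSO replicate 1 of sgCTRL (adjusted p = 0.0594, 0.266 and 0.249) and with limma-voom, no level filter or no variance trend (adjusted p = 0.0524, 0.0538 and 0.0749). AARS2, CARS2, EARS2, FARS2, PARS2, RARS2, TARS2, VARS2 and YARS2 did not pass with either guide, with log2 changes between -0.12 and 0.14. In GENCODE v29, 22% of the exonic bases of VARS2 overlap GTF2H4 on the same strand.

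Enzymes for the same amino acid were then set side by side in 17 pairs, with EPRS and FARS2 each used for 2 pairs. The cytosolic gene had the lower log2 change in 16 pairs with sgKLHL14 and 15 with sgCTRL, and the same 15 pairs with both. The median difference, cytosolic minus mitochondrial, was -0.43 with sgKLHL14 and -0.46 with sgCTRL, and no test was made of these pairs. The widest gap was that of cysteine with both guides, where CARS fell and CARS2 had 0.02 with sgKLHL14 and 0.04 with sgCTRL. Gaps were also wide for serine (-0.99 with sgKLHL14 and -1.05 with sgCTRL), tryptophan (-0.82 and -1.25) and tyrosine (-0.76 and -1.01). For serine and histidine the mitochondrial gene was called higher with both guides. Leucine ran the other way with both guides, with a LARS minus LARS2 difference of 0.10 and 0.04, and arginine had -0.13 with sgKLHL14 and 0.03 with sgCTRL.

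**Figure D4:**
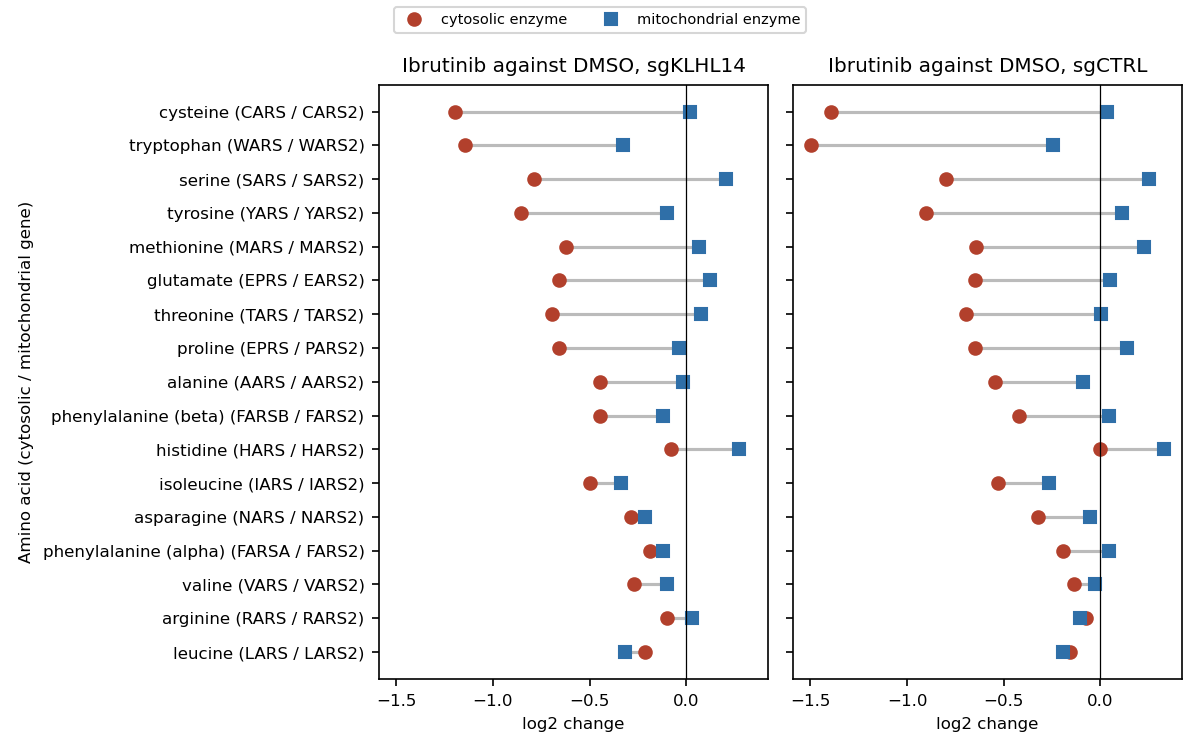
Log2 change with ibrutinib relative to DMSO for the cytosolic (red circles) and mitochondrial (blue squares) enzyme of each amino acid, with sgKLHL14 (left) and sgCTRL (right). The red circle lies left of the blue square in 16 pairs with sgKLHL14 and 15 with sgCTRL.

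Per length the cytosolic median was above the mitochondrial median in all groups, though the ranges overlapped. The lowest cytosolic gene was YARS with ibrutinib (33.2 with sgKLHL14 and 30.3 with sgCTRL) and HARS with DMSO (44.5 and 41.5). Each lay below IARS2. The level was taken as normalised reads per kilobase of transcript and 1000000 reads, with lengths from GENCODE v29 for 19 of 20 cytosolic genes (CARS had none) and all 16 mitochondrial genes. The cytosolic median was 80.5 with ibrutinib and 103.6 with DMSO in the libraries labelled sgKLHL14, and 73.2 and 98.4 in sgCTRL. The mitochondrial median was 14.6 and 14.8 with sgKLHL14 and 14.7 and 14.3 with sgCTRL. QARS had the highest per-length level of the cytosolic set with ibrutinib, 188 with sgKLHL14 and 189 with sgCTRL, and GARS the highest with DMSO, 185 and 178. The WARS per-length level was 57.6 with ibrutinib and 127 with DMSO with sgKLHL14, and 47.5 and 134 with sgCTRL. IARS2 led the mitochondrial set in each group (53.5 with ibrutinib and 67.6 with DMSO with sgKLHL14), and PARS2 was lowest in each (4.31 and 4.43).

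The promoter letters shown above were set against these calls. All 7 cytosolic genes with TGATGNAA in a window (IARS, MARS, AARS, CARS, GARS, NARS and TARS) were called lower with both guides, with median log2 changes of -0.62 with sgKLHL14 and -0.64 with sgCTRL. Of the 9 with a window and no match, 5 were called lower with both guides (EPRS, KARS, FARSB, SARS and WARS), with medians of -0.26 and -0.20 over the 9. WARS, with the largest change in sgCTRL, was among these. Of the 4 cytosolic genes without a window, LARS and YARS were called lower with both guides and VARS with sgKLHL14, while DARS was not called. YARS2, the mitochondrial gene with a match, had log2 changes of -0.10 and 0.11 and did not pass. The motif lies in a window that need not be the start used in these cells, and the relation was not tested.

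Between the guides, AARS and WARS were the called genes among the 39 members. With ibrutinib, AARS was higher in the libraries labelled sgKLHL14 than in sgCTRL (log2 change 0.35 ± 0.057, SE, limma adjusted p = 0.00113), and so was WARS (0.28 ± 0.057, SE, limma adjusted p = 0.0088). With DMSO, AARS was higher with sgKLHL14 (0.25 ± 0.057, SE, limma adjusted p = 0.0285), while WARS had -0.07 (adjusted p = 0.619). The library values given above did not overlap in these 3 comparisons. The background was 2.35% of tested genes called with ibrutinib and 1.62% with DMSO in either direction. These contrasts share libraries with the ibrutinib responses. The AARS call with DMSO ended without sgCTRL ibrutinib replicate 1 or 2, sgKLHL14 DMSO replicate 1, or sgCTRL DMSO replicate 1 or 2 (adjusted p = 0.0762 to 0.193), and without the level filter (adjusted p = 0.153). With ibrutinib it ended without sgCTRL ibrutinib replicate 1 (adjusted p = 0.0687). The WARS call ended without sgKLHL14 ibrutinib replicate 1 or 2 or sgCTRL ibrutinib replicate 1 or 2 (adjusted p = 0.0549, 0.07, 0.23 and 0.0658). With no trend of the variance, none of the 3 calls was made (adjusted p = 0.0906 to 0.26).

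Of the mitochondrial genes 0 were called between guides with limma, and 0 with limma-voom. At an unadjusted p under 0.05, 3 were higher with sgKLHL14 in DMSO (MARS2, NARS2 and VARS2) and 0 in ibrutinib. EEF1E1 had 0.29 in DMSO and did not pass (limma adjusted p = 0.065), and GARS had 0.19 in ibrutinib (adjusted p = 0.0861). The log2 change was positive, without regard to a threshold, in 29 of 39 members with ibrutinib and 34 with DMSO. These are 74.4% and 87.2% of the members, beside 48.6% and 50.8% of all genes tested. The changes were small, with a median over the 39 members of 0.052 with ibrutinib and 0.075 with DMSO. Both medians lay between the quartiles of all genes tested (-0.092 to 0.085 with ibrutinib and -0.096 to 0.098 with DMSO). Genes are not independent replicates and share the same libraries, so these shares are a description only. With ibrutinib the change was positive in 18 of 20 cytosolic genes (90%) and 8 of 16 mitochondrial genes (50%). With DMSO it was positive in 17 cytosolic (85%) and 14 mitochondrial genes (87.5%).

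**Figure D5:**
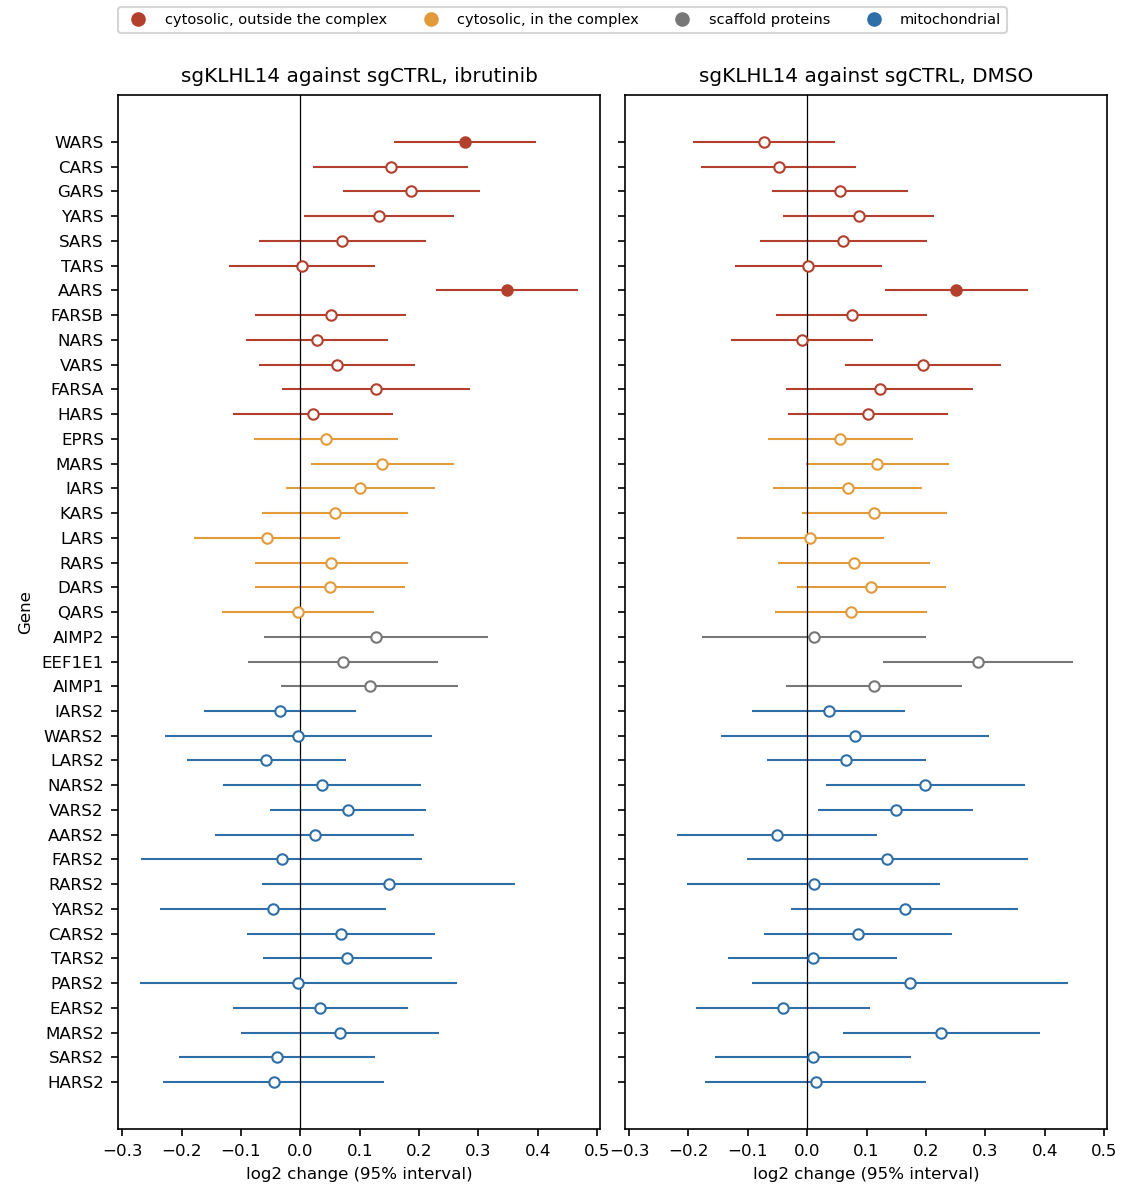
Log2 change with sgKLHL14 relative to sgCTRL for each member (rows), in ibrutinib (left) and DMSO (right), with 95% intervals from limma. Filled points passed the adjusted threshold, which are WARS and AARS with ibrutinib and AARS with DMSO.

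The difference between the ibrutinib responses, sgKLHL14 minus sgCTRL, was called for 0 of 39 members with limma and with limma-voom, and for 3 of all tested genes (0.0237%). The targeted gene KLHL14 was among these 3, with a difference of 0.66 (limma adjusted p = 0.00162). At an unadjusted p under 0.05, 2 members differed, WARS and CARS. WARS fell by less in the libraries labelled sgKLHL14, with a difference of 0.35 ± 0.081 (SE, limma adjusted p = 0.389, 95% interval 0.18 to 0.52). CARS had a difference of 0.20 ± 0.088 (SE, limma adjusted p = 0.874, 95% interval 0.01 to 0.38). For AARS the difference was 0.10 (95% interval -0.07 to 0.27). The median difference was 0.003 over the cytosolic and -0.07 over the mitochondrial genes, beside -0.004 for all genes.

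Other genes of the pathway were counted by list. Of 31 tested genes of the ATF4 and amino acid response, 27 were lower and 1 higher with ibrutinib in the libraries labelled sgKLHL14, and 26 lower and 2 higher in sgCTRL, with median log2 changes of -0.91 and -0.86. The share lower was 87.1% with sgKLHL14 and 83.9% with sgCTRL, beside 19.3% and 16.9% of all genes tested. The share higher was 3.23% and 6.45%, beside 19.7% and 17.9%. ASNS, asparagine synthetase, fell to a mean of 10.81 with ibrutinib against 12.17 with DMSO with sgKLHL14, and to 10.63 against 12.09 with sgCTRL (changes of -1.36 and -1.45). CTH, which makes cysteine from cystathionine, fell (-2.28 with sgKLHL14 and -2.42 with sgCTRL). CHAC1, a glutathione-degrading enzyme, fell (-2.17 and -2.09), as did ATF5, a relative of ATF4 (-0.95 and -1.31). Chosen after their values were seen, ATF4 itself fell (-0.88 with sgKLHL14 and -0.86 with sgCTRL), the amino acid carrier SLC1A4 rose by 0.42 and 0.48, and SLC7A1 rose by 0.21 in sgCTRL. DDIT3, on the list, lies opposite MARS, and 5.1% of the exonic bases of MARS overlap it. Between guides, the cystine carrier SLC7A11 was lower with sgKLHL14 (-0.37 with ibrutinib and -0.34 with DMSO). PSAT1, of serine synthesis, was higher with sgKLHL14 in ibrutinib (0.29, limma adjusted p = 0.0168).

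Of 13 genes for the eIF2 kinases, eIF2 and its partners, 3 were lower and 1 higher with each guide. The share lower was 23.1% with each guide, beside 19.3% (sgKLHL14) and 16.9% (sgCTRL) of all genes tested. The share called in either direction, 30.8% with each guide, was below that of all genes tested (38.9% and 34.8%). PPP1R15A, the stress-induced subunit of the eIF2 phosphatase, fell (-0.77 with sgKLHL14 and -0.95 with sgCTRL). It was higher with sgKLHL14 than sgCTRL in ibrutinib (0.51) and DMSO (0.33). EIF2B3 and EIF2S1 also fell (-0.44 and -0.29 with sgKLHL14, and -0.30 each with sgCTRL), and GCN1L1, an activator of the kinase GCN2, rose by 0.34 and 0.28. In tRNA transcription and export, 4 of 19 genes were lower with sgKLHL14 and 3 with sgCTRL. These shares, 21.1% and 15.8%, were near those of all genes tested (19.3% and 16.9% lower), while 0 were higher. XPOT, the tRNA exporter, fell (-0.63 and -0.69). POLR3G, a subunit of RNA polymerase III, fell (-0.57 and -0.66), as did POLR3B (-0.36 and -0.23) and, with sgKLHL14, POLR3K (-0.36).

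The other translation lists had few genes each. In all, 38.9% of tested genes were called in either direction with sgKLHL14 and 34.8% with sgCTRL. Of 7 cytosolic elongation factors, 1 was lower and 1 higher with sgKLHL14 and 1 lower with sgCTRL (28.6% and 14.3% called). EIF5A was lower with both guides (-0.38 and -0.24), and EEF2K was higher with sgKLHL14 (0.16). EEF1A1, which delivers charged tRNA to the ribosome, had 0.13 and 0.17 and did not pass. Of 13 mitochondrial translation factors, 2 were lower and 1 higher with sgKLHL14 and 1 lower and 1 higher with sgCTRL (23.1% and 15.4% called). The mitochondrial elongation factor GFM1 fell (-0.32 and -0.29), and TUFM had -0.29, which passed, and -0.16, which did not. GFM2, named after its value was seen, rose by 0.16 with sgKLHL14. QRSL1, a subunit of the enzyme that makes glutaminyl-tRNA in mitochondria, rose by 0.19 in sgCTRL. Of 6 genes of the selenocysteine tRNA route, 1 was lower and 1 higher with sgKLHL14, and 1 lower and 2 higher with sgCTRL. The shares called were 33.3% with sgKLHL14 and 50% with sgCTRL. SEPHS1 rose by 0.21 and 0.24, EEFSEC fell with each guide (-0.25 for both), and SEPSECS rose by 0.37 in sgCTRL.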

How the data were processed

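RNA-seq reads were demultiplexed with bcl2fastq, aligned with STAR to hg19 and counted per gene with HTSeq, per the submitters' processing notes. Which versions, annotation and strand setting were used is not given in the sources used here. The deposited table holds log2 values that the authors made from counts by a factor per library, with 0 reads listed at 0, and a row of total reads, which was left out. Tested on the values under 500 reads, where the step of 1 read is wide enough to tell, 100% were whole reads within 6e-04 on the log2 scale, 1 read being worth 1.16 to 2.19. These reads added up to 99.998% to 100.003% of the totals, and 0 columns belonged to other samples.

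Genes with a mean log2 level of at least 4.03 (10 reads in the median library) were kept, 12682 of 25066. They hold at least 99.9% of each library's reads. The 4 group means were fitted with limma 3.58.1 (limma-trend, R 4.3.3), with 4 residual and a median of 15 prior degrees of freedom, with p-values adjusted after Benjamini-Hochberg over all kept genes and a threshold of 0.05. Contrasts were ibrutinib against DMSO within each guide, sgKLHL14 against sgCTRL within each treatment, and the difference between the responses. The fit was also run on simulated reads with the same spread setting for all genes, which does not give error rates for these data. Since the values are normalised, limma-voom on the recovered reads served as the count-based alternative. Low counts carry more counting error, and the intervals cover only the spread between these libraries.

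Members and gene lists were chosen with earlier results of these data known, so no list was tested and lists are given by counts and medians. All members are named. From the other lists, up to 4 genes with the smallest p of the averaged ibrutinib response and up to 2 called for a guide contrast or the difference were named, and exceptions are marked. Promoter windows are from RefSeq (GRCh38.p14) and exon overlaps and lengths from GENCODE v29. Alternatives were another level filter, variance model, scaling or pseudocount, limma-voom, a replicate block and leaving out each library.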

Additional observations from a re-analysis of the deposited data

How the results depend on the processing

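The count of called cytosolic genes stayed between 14 and 16 with sgKLHL14 and between 12 and 16 with sgCTRL under all alternatives run, and no called change reversed its direction under any of them. Without a variance trend, calls fell to 3 mitochondrial genes with each guide (6 with sgKLHL14 and 5 with sgCTRL in the fit reported), 96 genes between guides in ibrutinib (298 reported), 25 in DMSO (206 reported), and 0 cytosolic genes in either (2 and 1 reported), and 0 genes differed in response (3 reported). With no level filter, 3 mitochondrial genes were called with sgKLHL14, 155 genes between guides in ibrutinib, 47 in DMSO, 0 cytosolic genes in DMSO, and 0 genes for the difference. Members with changes near 0 reversed their sign in sgCTRL, namely HARS (0.004) with limma-voom, FARS2 (-0.015) with quantile scaling and TARS2 (-0.007) with median scaling. The cause was not tested.

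Leaving out each library gave 2907 to 4638 called genes for ibrutinib with sgCTRL, 3 to 5 mitochondrial genes with sgKLHL14 and 1 to 5 with sgCTRL. Between guides it gave 123 to 364 genes in ibrutinib and 63 to 534 in DMSO, with 0 to 2 cytosolic genes in each. Uncalled members whose sign reversed had these log2 changes over the libraries left out. With sgKLHL14 they were AIMP1 -0.031 to 0.088, AARS2 -0.094 to 0.057, CARS2 -0.015 to 0.051, PARS2 -0.115 to 0.036 and RARS2 -0.025 to 0.086. With sgCTRL they were DARS -0.091 to 0.026, HARS -0.054 to 0.051, AIMP1 -0.065 to 0.111, AARS2 -0.196 to 0.009, CARS2 -0.046 to 0.117, FARS2 -0.083 to 0.167, NARS2 -0.150 to 0.041 and TARS2 -0.068 to 0.075.

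The labels state no pairing of the samples. Deviations of same-numbered libraries correlated at -0.0614 to 0.106, which cannot tell whether the replicate numbers pair them. With the replicate number as a block, 369 genes differed between guides in DMSO and 5 in response, and FARSA passed with both guides, QARS with sgCTRL and EEF1E1 between guides in DMSO (adjusted p = 0.031), with no other call of a member changed in any contrast. Over the members' ibrutinib responses and the called guide differences, and all alternatives, 1188 values kept their direction and side of the threshold, 69 lost and 17 gained the call, and 22 reversed. Scalings moved the median of all genes by less than 0.1. With 2 libraries a group, small changes of low genes such as PARS2 and FARS2 are poorly resolved.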
